A study of Mus musculus with 8 samples.

Results

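Glucose entry and upper glycolysis were described here through 10 genes: the glucose transporters Slc2a1 and Slc2a3, the hexokinases Hk1 and Hk2, the phosphoglucose isomerase Gpi1, the phosphofructokinase-1 genes Pfkl, Pfkm and Pfkp, and the bifunctional regulators Pfkfb3 and Pfkfb4. The members were chosen by symbol, as 10 of the 53465 gene rows of the count table. All 10 passed the filter on low counts, as did 14369 genes in all. RNA was sequenced from mesenchymal stem cells (MSCs, the stromal cells that give rise to bone, cartilage and fat) cultured out of the bones of wild-type male C57BL/6N mice, 3 to 5 months of age. Both groups started from cultures grown at 2% oxygen, from which cells negative for CD45 and TER-119 and positive for Sca-1 and CD140a were sorted. The sort was on day 12 by the study's methods and on day 10 by its figure legend. The sorted cells were divided, and 4 samples were kept at 2% oxygen (hypoxia) while 4 were moved to 21% oxygen (normoxia) for a week. The comparison asks how long exposure to atmospheric oxygen changes the transcripts of the first steps of glycolysis, isoform by isoform.

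Glucose enters a cell through transporters of the SLC2 family and is trapped as glucose 6-phosphate by a hexokinase. The isomerase turns this into fructose 6-phosphate, and phosphofructokinase-1 adds the second phosphate in the step that commits the sugar to glycolysis. The PFKFB enzymes make and remove fructose 2,6-bisphosphate, a strong activator of phosphofructokinase-1, and several of these genes are textbook targets of the hypoxia-inducible factors (HIF), which accumulate when oxygen is low. Bone marrow MSCs live in a niche with little oxygen and are known for a glycolytic metabolism.

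Total counts were between 12898291 and 13433824 in 7 samples and 25132141 in hypoxia sample 1, so the sample with the most reads lay in the hypoxia group. The MSC markers were all expressed, as 13 of 13 listed genes passed the filter. Among them were Pdgfra (CD140a), at 151 to 227 CPM, and Ly6a (Sca-1), at 349 to 501 CPM. CPM are read counts scaled to library size, with TMM factors that balance the libraries. By the test described below 2 of the 13 fell and 3 rose, beside 16.5% and 18.0% of all tested genes. The summed level of the 13 was 87752 to 96393 CPM in hypoxia and 60673 to 65721 CPM in normoxia. Most of it was the collagen genes Col1a1 and Col1a2, and Col1a1 was among those that fell. Transcripts of blood cells were also present, since Ptprc (CD45), which the sort had selected against, was counted at 8.28 to 19.0 CPM, and 6 of 9 blood markers passed the filter, led by the macrophage gene Lyz2. Their summed level was 467 to 922 CPM in hypoxia and 580 to 1078 CPM in normoxia, with Cd3e and Ly6g at 0. The largest part of it was Lyz2, at 261 to 691 CPM. Lyz2 was the one blood marker that rose by that test (log2 change 0.56, adjusted p = 0.022), and none fell. The estimates were below 0 for Csf1r (-0.59), Itgam (-0.46), Cd68 (-0.28) and Adgre1 (-0.11), and above 0 for Ptprc (0.08). All 5 erythroid markers were at 0. Because these are bulk samples, fewer cells of a type and less RNA per cell cannot be told apart.

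The promoters of the 4 genes that fell in normoxia, and of 2 that did not pass the test, are printed to show the sequence that stands before them. Each RefSeq window (GRCm38.p6) holds 250 bases before and 50 bases after an annotated start and is written 5′ to 3′ on the strand of the gene, with every match to the HIF core letters ACGTG or GCGTG, on either strand, in capitals. A match on the other strand reads as CACGT or CACGC. Matches may overlap, and a CACGTG counts on both strands. The windows are chr4:119108495-119108794 (plus strand) for Slc2a1, chr7:34230287-34230586 (minus) for Gpi1, chr10:78009758-78010057 (minus) for Pfkl, chr13:6648722-6649021 (minus) for Pfkp, chr6:82774405-82774704 (minus) for Hk2 and chr2:11553880-11554179 (minus) for the upstream window of Pfkfb3.
Slc2a1: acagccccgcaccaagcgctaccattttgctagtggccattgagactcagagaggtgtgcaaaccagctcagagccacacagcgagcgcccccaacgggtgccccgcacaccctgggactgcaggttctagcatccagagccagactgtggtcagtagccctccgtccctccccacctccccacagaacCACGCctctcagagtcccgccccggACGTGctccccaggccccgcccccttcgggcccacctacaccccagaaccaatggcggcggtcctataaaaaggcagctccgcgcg
Gpi1: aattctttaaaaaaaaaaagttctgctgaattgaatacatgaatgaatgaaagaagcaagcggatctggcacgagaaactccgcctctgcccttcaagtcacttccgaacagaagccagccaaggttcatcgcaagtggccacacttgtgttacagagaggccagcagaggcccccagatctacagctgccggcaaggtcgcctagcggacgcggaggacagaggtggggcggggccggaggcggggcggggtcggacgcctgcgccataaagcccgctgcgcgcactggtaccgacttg
Pfkl: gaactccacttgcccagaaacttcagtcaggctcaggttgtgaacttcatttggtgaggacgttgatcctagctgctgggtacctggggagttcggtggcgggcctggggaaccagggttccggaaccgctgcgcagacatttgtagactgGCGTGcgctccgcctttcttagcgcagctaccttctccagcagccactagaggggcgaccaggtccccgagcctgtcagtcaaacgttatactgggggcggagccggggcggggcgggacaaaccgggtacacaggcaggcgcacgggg
Pfkp: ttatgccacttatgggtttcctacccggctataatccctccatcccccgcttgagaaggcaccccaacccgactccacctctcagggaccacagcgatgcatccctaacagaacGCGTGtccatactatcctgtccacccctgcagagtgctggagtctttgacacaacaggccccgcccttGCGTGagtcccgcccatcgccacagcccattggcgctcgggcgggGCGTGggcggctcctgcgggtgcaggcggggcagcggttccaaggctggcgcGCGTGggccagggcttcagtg
Hk2: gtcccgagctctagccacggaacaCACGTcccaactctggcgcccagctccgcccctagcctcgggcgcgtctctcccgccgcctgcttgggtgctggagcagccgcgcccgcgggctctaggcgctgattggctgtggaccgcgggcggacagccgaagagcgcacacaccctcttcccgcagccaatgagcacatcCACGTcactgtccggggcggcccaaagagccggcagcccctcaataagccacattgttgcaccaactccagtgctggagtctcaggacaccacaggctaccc
Pfkfb3: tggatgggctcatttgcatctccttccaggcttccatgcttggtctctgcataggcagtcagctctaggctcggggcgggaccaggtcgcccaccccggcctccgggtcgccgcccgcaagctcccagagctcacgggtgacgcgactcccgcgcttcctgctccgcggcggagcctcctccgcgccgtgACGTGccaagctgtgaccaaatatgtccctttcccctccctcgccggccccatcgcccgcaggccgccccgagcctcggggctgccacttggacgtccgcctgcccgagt

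RefSeq held 14 such windows for 9 of the 10 genes, and none was matched for Slc2a3. The window of Slc2a1 held 2 core matches, that of Pfkl 1 and that of Pfkp 4, while that of Gpi1, the gene with the strongest fall, held none of these letters. The single window of Hk2 held 2 matches and that of Pfkfb4 held 1, although neither gene passed the test. The genes with several annotated starts varied by window: Hk1 held 0 and 5 matches, Pfkm 3, 2, 1 and 0, and Pfkfb3 1 and 4. Windows 2 and 3 of Pfkm overlap, and the match in window 3 is also counted in window 2. Of the 14 windows 11 held at least 1 match, beside 43.8% of all 32851 windows, whose median GC content was 52.7% against 60.0% in the 14. These letters are common in promoters and a match is a description of the sequence only.

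In normoxia 4 of the 10 genes fell and none rose: Slc2a1, Gpi1, Pfkl and Pfkp changed by -27.9% to -23.0%. They are the more abundant of the 2 transporters, the isomerase, and the liver and platelet forms of phosphofructokinase-1. The test was limma-trend across all 14369 genes with p-values adjusted by Benjamini-Hochberg and called under 0.05, and each change is normoxia minus hypoxia on the scale of log2 CPM with a prior count of 3. Of all tested genes 16.5% fell and 18.0% rose by this test. The same 4 genes were those whose groups did not overlap, against 15.5% of all genes with every normoxia sample below every hypoxia sample and 17.1% with the reverse. The median change of the 10 genes was -0.24, beside 0.0049 for all tested genes.

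**Figure D1:**
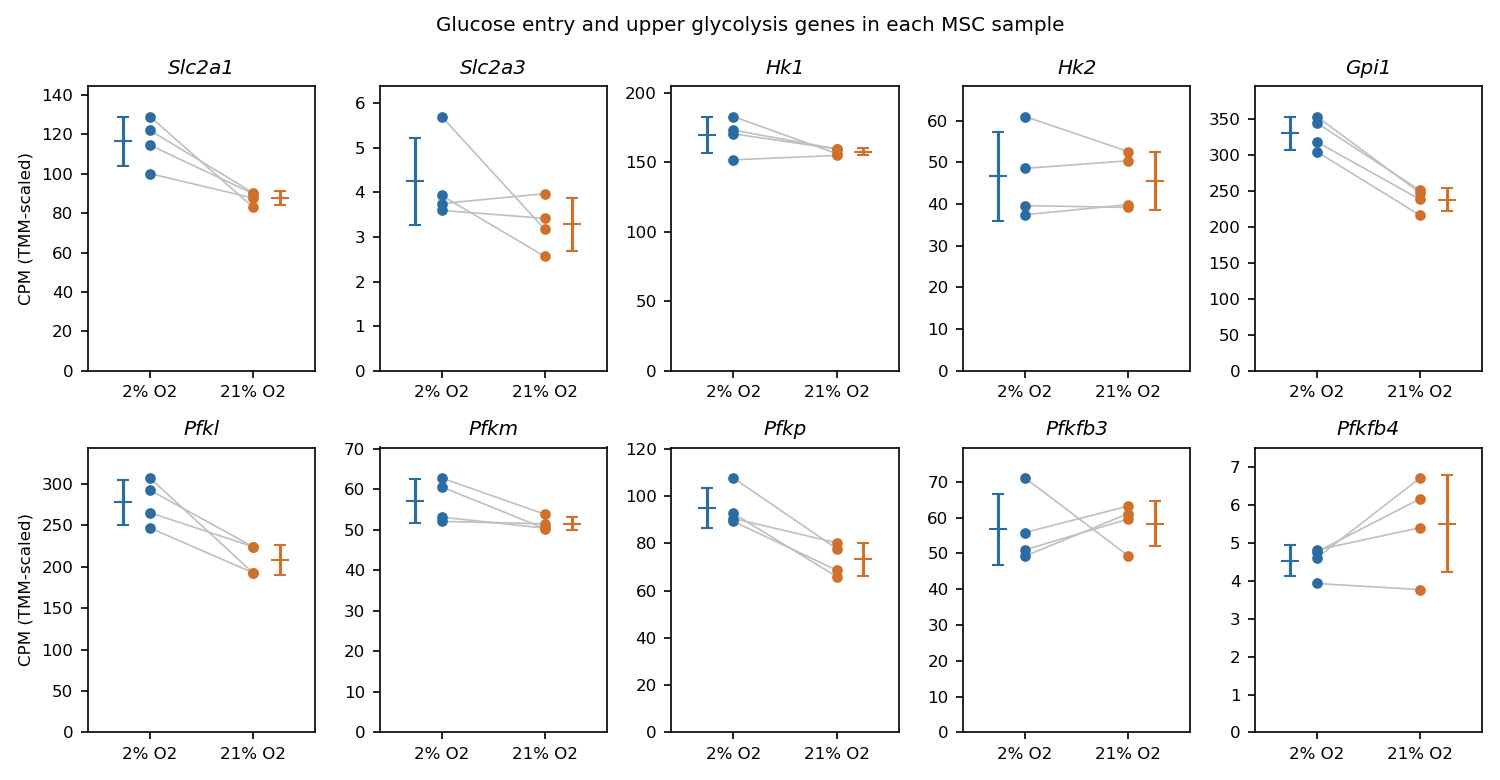
Each panel plots 1 gene, with CPM (TMM-scaled) on the vertical axis from 0 and the oxygen level on the horizontal axis; points are samples, grey lines join samples with the same number, and the crossbars beside them give mean ± SD (n = 4). In the panels of Slc2a1, Gpi1, Pfkl and Pfkp all points at 21% oxygen lie below all points at 2% oxygen, and in the other 6 panels the groups overlap.

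Slc2a1 encodes GLUT1, the transporter for basal glucose uptake in most cells (ENSMUSG00000028645, chr4:119108711-119137983, plus strand). It was counted at 129, 100, 122 and 115 CPM in hypoxia samples 1 to 4 and at 83.0, 87.7, 90.4 and 89.9 CPM in normoxia samples 1 to 4. The lowest hypoxia sample was above the highest normoxia sample, and the normoxia samples lay closer together than the hypoxia samples. The mean fell from 116 ± 12.4 to 87.7 ± 3.36 CPM (SD, n = 4), a log2 change of -0.40 (SE 0.076, adjusted p = 0.0018). Between samples with the same number the difference ran from -0.64 in number 1 to -0.19 in number 2.

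Slc2a3 encodes GLUT3, a high-affinity transporter typical of neurons (ENSMUSG00000003153, chr6:122727809-122801640, minus strand). It was scarce, with 34 to 86 counts a sample. Hypoxia samples 1 to 4 stood at 3.59, 5.70, 3.75 and 3.93 CPM, and normoxia samples 1 to 4 at 3.42, 3.17, 3.97 and 2.56 CPM. The groups overlapped, and hypoxia sample 2 stood above the rest. The log2 change was -0.34 (SE 0.19, 95% interval -0.75 to 0.06, adjusted p = 0.18). It passed the test in 1 of 25 alternative fits, the one with both a correction for transcript GC content and length and the replicate number as a block (-0.43, adjusted p = 0.042). By that fit 5 of the 10 genes fell and none rose, beside 21.5% of all genes that fell and 21.7% that rose.

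Hk1 encodes the hexokinase of most tissues, which binds to mitochondria (ENSMUSG00000037012, chr10:62268855-62379908, minus strand). Its CPM was 183, 170, 173 and 152 in hypoxia and 156, 159, 159 and 155 in normoxia, in the order of the sample numbers. Hypoxia sample 4 lay below all normoxia samples and the other hypoxia samples above them. The log2 change of -0.10 did not pass the test (SE 0.062, 95% interval -0.24 to 0.03, adjusted p = 0.22), and with the GC and length correction it was 0.02.

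Hk2 encodes the inducible hexokinase, known from muscle and from tumours and often listed among HIF targets (ENSMUSG00000000628, chr6:82725025-82774454, minus strand). Its CPM was 61.0, 39.6, 48.6 and 37.4 in hypoxia samples 1 to 4 and 52.6, 39.2, 50.4 and 39.9 in normoxia samples 1 to 4. The values followed the sample number rather than the oxygen level, with numbers 1 and 3 high and numbers 2 and 4 low in both groups. The log2 change was -0.02 (SE 0.15, 95% interval -0.34 to 0.30, adjusted p = 0.93). With the replicate number as a block the interval narrowed to -0.16 to 0.12 (adjusted p = 0.82). In these counts, falls of the size of Slc2a1 lay outside both intervals for this gene. The study's own qRT-PCR, scaled to β-actin, gave lower Hk2 in normoxia than in hypoxia, with a mean fall beyond both intervals. It also gave lower Pfk1, Pgk1 and Pgam1, and the study reports lower glucose consumption, lactate production and extracellular acidification in normoxia. In the counts Pfkl and Pfkp fell, as did Pgk1 (-0.43, adjusted p = 0.0049). Pgam1 did not pass the test (-0.22, adjusted p = 0.058). Why the assays differ on Hk2 was not tested.

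Gpi1 encodes glucose 6-phosphate isomerase (ENSMUSG00000036427, chr7:34201330-34230336, minus strand) and had the highest CPM of the 10 genes. The hypoxia samples stood at 354, 305, 345 and 319 CPM and the normoxia samples at 248, 216, 251 and 239 CPM. No sample of one group reached the other, and the differences between same-numbered samples were close to each other, from -0.51 to -0.42. The mean fell from 331 ± 22.7 to 239 ± 15.6 CPM (SD, n = 4), a log2 change of -0.47 (SE 0.067, adjusted p = 0.00037). Of all tested genes 19.5% had a change of larger size in either direction.

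Pfkl encodes the liver form of phosphofructokinase-1 (ENSMUSG00000020277, chr10:77986947-78010083, minus strand). Its CPM was 307, 247, 292 and 265 in hypoxia and 192, 193, 224 and 224 in normoxia. All hypoxia samples were above all normoxia samples, with the widest difference in number 1 (-0.67) and the narrowest in number 4 (-0.24). The mean fell from 278 ± 27.0 to 208 ± 18.2 CPM (SD, n = 4), a log2 change of -0.41 (SE 0.081, adjusted p = 0.0022). The estimate was the one among the 4 that moved most with the correction for GC content and length, to -0.27 with the block (adjusted p = 4.2e-05).

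Pfkp encodes the platelet form (ENSMUSG00000021196, chr13:6579768-6648777, minus strand). It was counted at 108, 92.7, 89.3 and 90.5 CPM in hypoxia and at 77.8, 66.0, 68.7 and 80.3 CPM in normoxia. The groups did not overlap, and the mean fell from 95.0 ± 8.53 to 73.2 ± 6.92 CPM (SD, n = 4), a log2 change of -0.38 (SE 0.081, adjusted p = 0.0039). The exons of Pfkp share 748 bases with those of Pitrm1 on the opposite strand, and whether the counting used strand is not stated. Pitrm1, with 576 to 1217 counts, had a log2 change of 0.01 (adjusted p = 0.96).

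Pfkm encodes the muscle form (ENSMUSG00000033065, chr15:98092589-98132451, plus strand). Its CPM was 52.0, 62.7, 53.1 and 60.6 in hypoxia and 51.5, 53.8, 50.4 and 50.3 in normoxia. Normoxia was lower in 4 of 4 numbered pairs, although the groups overlapped and pair 1 differed by only -0.02. The log2 change of -0.14 did not pass the test without the block (SE 0.073, 95% interval -0.30 to 0.01, adjusted p = 0.14) or with it (adjusted p = 0.063), and it was -0.04 with the GC and length correction. The summed level of 9 muscle markers was 25.6 to 40.6 CPM in hypoxia and 9.72 to 14.7 CPM in normoxia, and most of it was the actin gene Acta1, at 8.07 to 38.2 CPM over the 8 samples. Of these markers 4 passed the filter and 2 fell, Acta1 (-1.33) and Des (-0.74), beside 16.5% of all tested genes that fell. Mylpf (0.10) and Tnnt3 (-0.23) did not pass the test. Ckm, Myh4 and Myog were at 0. The part of muscle transcripts in the value of Pfkm was not tested.

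Counting by numbered pairs, 5 of the 10 genes (Slc2a1, Gpi1, Pfkl, Pfkm and Pfkp) were lower in normoxia in 4 of 4 pairs, beside 26.8% of all tested genes. With the replicate number as a block in the model, the same 4 genes fell as without it and none rose, beside 22.7% of all genes that fell and 23.3% that rose.

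Pfkfb3 encodes the regulator with the highest ratio of kinase to phosphatase activity (ENSMUSG00000026773, chr2:11471433-11554077, minus strand). Its CPM was 71.1, 55.8, 49.3 and 51.0 in hypoxia and 49.3, 63.2, 61.1 and 59.6 in normoxia. Pair 1 differed by -0.53, against the direction of pairs 2 to 4, which were higher in normoxia by 0.18, 0.31 and 0.22. The log2 change over all samples was 0.05 (SE 0.11, 95% interval -0.20 to 0.29, adjusted p = 0.78). Without both samples numbered 1 it was 0.23 (adjusted p = 0.026), the one setting of 25 in which any of the 10 genes passed the test as higher in normoxia.

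Pfkfb4, a regulator known as a hypoxia-inducible gene in many cell types, was scarce, with 50 to 114 counts a sample (ENSMUSG00000025648, chr9:108991778-109032228, plus strand). Hypoxia samples 1 to 4 stood at 4.77, 4.81, 4.61 and 3.93 CPM and normoxia samples 1 to 4 at 6.16, 5.40, 6.71 and 3.77 CPM. Normoxia was higher in pairs 1 to 3 and lower in pair 4. The log2 change of 0.25 did not pass the test (SE 0.18, 95% interval -0.14 to 0.63, adjusted p = 0.31). Under the GC and length correction with the block it was 0.34 (adjusted p = 0.056).

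**Figure D2:**
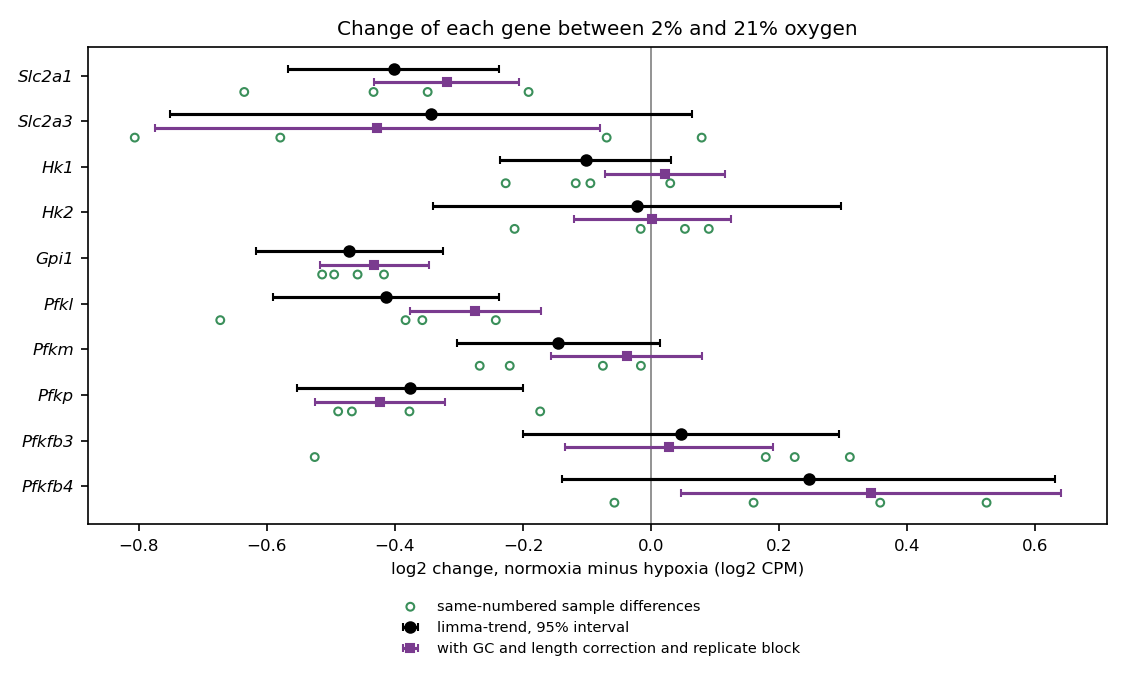
The horizontal axis gives the log2 change in log2 CPM, normoxia minus hypoxia, for the 10 genes. Black circles are limma-trend estimates with 95% intervals, purple squares the GC- and length-corrected estimates of the blocked fit, and open green circles the differences between same-numbered samples; for Slc2a1, Gpi1, Pfkl and Pfkp both intervals and all 4 differences lie below 0.

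Read by step, the transcripts for glucose entry, isomerisation and phosphofructokinase-1 were lower in normoxia, while the hexokinases and the PFKFB regulators did not pass the test. The summed level of each step was taken as CPM per kilobase of exons (TMM-scaled) over its genes, and was compared with a two-sided exact permutation test over the 70 assignments of the 8 samples. The transporters changed by -0.40 on the log2 scale (95% interval -0.63 to -0.16, exact p = 0.0286, 0.0476 adjusted over the 5 steps). The isomerase changed by -0.47 (95% interval -0.71 to -0.28) and phosphofructokinase-1 by -0.34 (95% interval -0.48 to -0.20). Both had the same p-values as the transporters, and an exact p of 0.0286 is the smallest this design can give. All 3 of these steps were lower in 4 of 4 pairs. The isomerase sum is Gpi1 alone, and Slc2a1 made up 98.2% of the transporter sum in both groups. Since the groups of Gpi1 and Slc2a1 did not overlap, these sums repeat those single-gene results and add no separate support. In the phosphofructokinase-1 sum Pfkl held 63.1% in hypoxia and 59.8% in normoxia, and Pfkp 10.8% and 10.5%. As both fell as single genes with groups that did not overlap, that sum is not independent of them. The hexokinases changed by -0.08 (95% interval -0.35 to 0.17, exact p = 0.49) and the PFKFB genes by 0.08 (95% interval -0.41 to 0.34, exact p = 0.60). Without hypoxia sample 1 the PFKFB value was 0.18 (exact p = 0.11), and without both samples numbered 1 it was 0.24 (exact p = 0.10, the smallest that 3 against 3 samples allow). That these steps differ from the other 3 in their response was not tested.

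**Figure D3:**
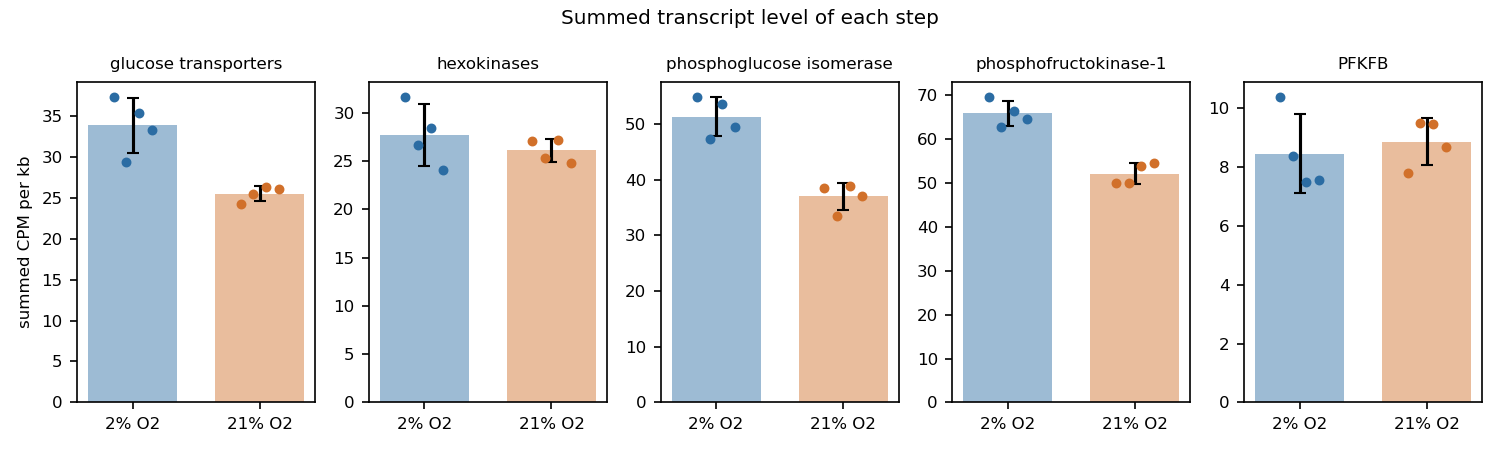
Bars give the mean summed level of each step in CPM per kilobase, from 0, error bars the SD (n = 4) and points the samples at 2% (blue) and 21% oxygen (orange). For the transporters, the isomerase and phosphofructokinase-1 the points of the groups are separate, and for the hexokinases and PFKFB they overlap.

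The levels of different genes can be compared only per length. In CPM per kilobase the order was Gpi1 (51.3 in hypoxia and 37.0 in normoxia), Pfkl (41.6 and 31.2), Slc2a1 (33.2 and 25.0), Hk1 (19.9 and 18.5), Pfkm (17.1 and 15.4), Hk2 (7.82 and 7.62), Pfkfb3 (7.51 and 7.71), Pfkp (7.09 and 5.46), Pfkfb4 (0.929 and 1.13) and Slc2a3 (0.585 and 0.453). Among neighbours in this order, Hk2 was above Pfkfb3 in 4 of the 8 samples, so these did not differ beyond their spread. Pfkfb3 was above Pfkp in 6 samples and Hk1 above Pfkm in 7, with overlap in hypoxia. The other neighbours kept their order in 8 of 8 samples. With the length of the longest transcript in place of all exons, Hk1 took the third place from Slc2a1, and the order became Pfkfb3, Pfkp and Hk2 for the middle ranks.

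Within each step with several of the 10 genes, one held most of the counts in both groups. Slc2a1 held 98.2% ± 0.618 of the length-scaled counts of Slc2a1 and Slc2a3 in hypoxia and 98.2% ± 0.316 in normoxia (SD, n = 4). Hk1 held 72.0% ± 3.25 of the counts of Hk1 and Hk2 in hypoxia and 70.9% ± 3.16 in normoxia. Pfkfb3 held 88.8% ± 1.42 and 87.1% ± 3.22 of the counts of Pfkfb3 and Pfkfb4.

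Within phosphofructokinase-1, Pfkl held 63.1% ± 3.50 in hypoxia and 59.8% ± 2.47 in normoxia (SD, n = 4), Pfkm 26.1% ± 3.53 and 29.7% ± 2.25, and Pfkp 10.8% ± 0.656 and 10.5% ± 0.960. In each of the 4 pairs the share of Pfkl was lower in normoxia, with a mean difference of -3.30 percentage points, but the groups overlapped and the exact permutation p was 0.14 (95% interval -8.46 to 3.42 percentage points, 0.57 adjusted over 4 shares).

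**Figure D4:**
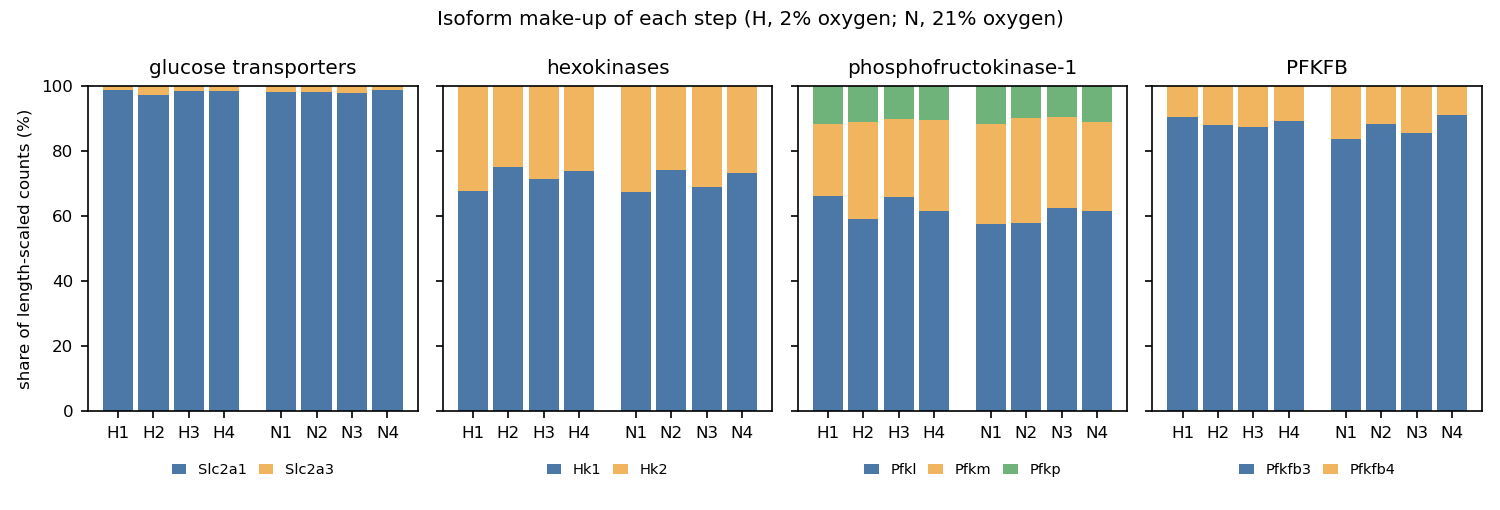
Stacked bars give the share of each gene (%) in the length-scaled counts of its step for hypoxia samples H1 to H4 and normoxia samples N1 to N4. Slc2a1, Hk1, Pfkl and Pfkfb3 take the largest share of their step in all 8 samples, and the bars of the groups overlap in height.

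The ratio of 2 isoforms within a sample does not depend on library scaling, and its change tests directly whether 1 isoform responded more than the other. Of the 6 ratios compared, none passed the exact permutation test, with p-values adjusted over the 6. Pfkl to Pfkm changed by -0.27 on the log2 scale (95% interval -0.72 to 0.18, exact p = 0.17, adjusted p = 0.51) and Pfkp to Pfkm by -0.23 (95% interval -0.75 to 0.11, exact p = 0.17, adjusted p = 0.51). Thus Pfkl and Pfkp fell and Pfkm did not pass the test, but a difference in response between Pfkm and the other forms was not shown. Pfkl to Pfkp changed by -0.04 (95% interval -0.40 to 0.29, exact p = 0.71), and with the GC and length correction by 0.15.

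For the transporters, Slc2a1 to Slc2a3 changed by -0.04 (95% interval -0.66 to 0.99, exact p = 0.89), an interval too wide to place Slc2a3 apart from Slc2a1. Hk1 to Hk2 changed by -0.08 (95% interval -0.53 to 0.44, exact p = 0.63) and was lower in normoxia in 4 of 4 pairs, for which the sign-flip test over pairs gave its smallest possible exact p, 0.125. Pfkfb3 to Pfkfb4 changed by -0.21 (95% interval -0.90 to 0.56, exact p = 0.46).

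The 25 other isoforms and regulators of these steps were counted in the same way. Of these 13 passed the filter, 4 fell and 1 rose, beside 16.5% and 18.0% of all tested genes, with a median change of -0.08. The genes not tested included the insulin-responsive transporter Slc2a4, the liver transporter Slc2a2 and the fructose bisphosphatases Fbp1 and Fbp2, of which none was above 17 counts in a sample. Slc2a12, a GLUT family transporter, changed by -0.79 (SE 0.23, adjusted p = 0.022) at 14 to 63 counts. Its call was lost in 6 of 25 alternatives, among them the fits without a filter (adjusted p = 0.065) and without both samples numbered 3 (-0.62, adjusted p = 0.14). Slc2a8, an intracellular sugar transporter, fell from 27.4 ± 5.27 to 17.6 ± 1.23 CPM (SD, n = 4; adjusted p = 0.0031). G6pc3, the ubiquitous glucose 6-phosphatase, which opposes the hexokinases, fell from 61.7 ± 2.21 to 45.0 ± 2.58 CPM, a log2 change of -0.45 (adjusted p = 0.00032) that was -0.24 when corrected for GC content and length. The fourth was Txnip, an inhibitor of glucose uptake, with a log2 change of -0.29 (adjusted p = 0.045); it was named after its value was seen. The gene that rose was Tigar, which removes fructose 2,6-bisphosphate, from 7.34 ± 0.628 to 10.1 ± 0.633 CPM (adjusted p = 0.0079).

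In the fit with the replicate block 5 genes of this list fell and 2 rose, beside 22.7% and 23.3% of all tested genes. The additional ones, named after their values were seen, were Hk3, a hexokinase of blood cells (-0.69, adjusted p = 0.075 without the block and 2.3e-05 with it), and the urate and sugar transporter Slc2a9 (0.45, adjusted p = 0.051 without and 0.0060 with it). Of the 6 blood markers that passed the filter, only Lyz2 passed the test, with a log2 change of 0.56 (adjusted p = 0.022). The macrophage receptor gene Csf1r had a log2 change of -0.59 (adjusted p = 0.10). The others were Itgam (-0.46), Cd68 (-0.28), Adgre1 (-0.11) and Ptprc (0.08). The part of blood cells in the value of Hk3 was not tested.

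Of 19 genes in the branches that leave from or feed the hexose phosphates, 18 were tested, 4 fell and 3 rose, with a median of 0.04. These shares were near the 16.5% and 18.0% of all tested genes. Pygb, a glycogen phosphorylase, fell by 0.51 on the log2 scale (adjusted p = 0.0027). Pgm1, the phosphoglucomutase that links glucose 1-phosphate and glucose 6-phosphate, fell by 0.48 (adjusted p = 0.00049). Gys1, the glycogen synthase, fell by 0.27 (adjusted p = 0.014), with -0.16 after the GC and length correction, and was named after its value was seen. Pgls, the lactonase of the pentose phosphate pathway, fell by 0.48 (adjusted p = 0.0011), with -0.31 after that correction. Uap1 and Pgm3, enzymes on the way to UDP-N-acetylglucosamine, rose by 0.53 (adjusted p = 0.00062) and 0.38 (adjusted p = 0.0023). The other gene that rose was Ugp2, which makes UDP-glucose, by 0.27 (adjusted p = 0.0036), but by 0.06 when corrected for GC content and length in the blocked fit (adjusted p = 0.37). Gfpt1, the enzyme that opens the hexosamine branch from fructose 6-phosphate, did not pass the test (0.07, adjusted p = 0.42).

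Below the point where the 10 genes end, 7 of 11 genes of lower glycolysis fell and none rose, beside 16.5% and 18.0% of all tested genes, with a median of -0.43. With the replicate block 8 fell and 1 rose, beside 22.7% and 23.3% of all tested genes. The gene that rose was Ldhb (0.18, adjusted p = 0.049), a lactate dehydrogenase gene named after its value was seen. The block with the GC and length correction gave 8 that fell and 2 that rose, beside 21.5% and 21.7% of all genes. These 2 were Ldhb (0.31, adjusted p = 0.00042) and Pkm (0.18, adjusted p = 0.0016). Pkm, also named after its value was seen, had a change of -0.00023 without block and correction. The strongest were the aldolase Aldoc (-1.27), Gapdh, the glyceraldehyde 3-phosphate dehydrogenase (-0.63), and the aldolase Aldoa (-0.55, and -0.35 after the GC and length correction).

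**Figure D5:**
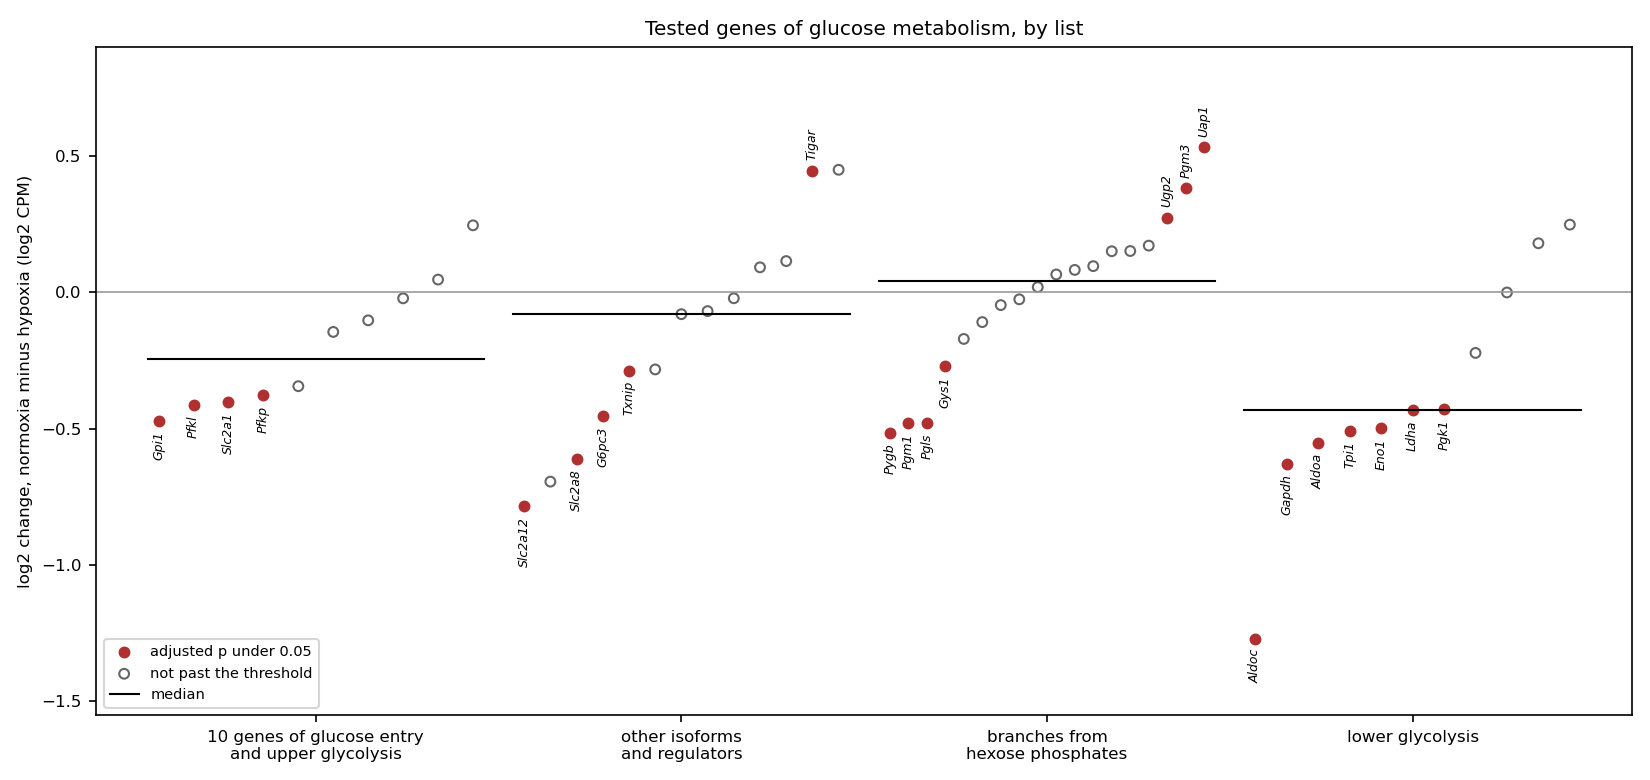
The vertical axis gives the log2 change in log2 CPM, normoxia minus hypoxia, of each tested gene, in columns for the 10 genes and 3 lists; filled red points passed the threshold and are named, open points did not, and black lines are medians. The column of the 10 genes has 4 filled points, all between -0.47 and -0.38, and the branch list has filled points on both sides of 0.

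The genes whose log2 CPM over the 8 samples was most like that of Gpi1, the gene with the largest change of the 10, were sought among 9394 genes with a mean log2 CPM of at least 3. These were Gm10293, a processed pseudogene (Pearson r = 0.992), the cholesterol acyltransferase Soat1 (0.992), the neutral amino acid transporter Slc1a4 (0.991), Pgm1 (0.991) and the small heat shock protein Hspb6 (0.991). Of the other genes of the 10, Pfkl (0.946), Slc2a1 (0.936) and Pfkp (0.895) were most like it, Hk1 followed at 0.657, and Pfkfb3 (-0.11) and Pfkfb4 (-0.36) were below 0. All samples share the same 2 conditions and their library scaling, and these values are a description only.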

How the data were processed

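RNA-seq of 8 MSC samples, 4 at 2% and 4 at 21% oxygen, was analysed from 1 table of raw counts per gene. Per the methods, the authors sequenced single-end libraries, used zUMIs, STAR, samtools and featureCounts on mm10, and deposited these counts without normalization. Whether strand, introns or multi-mapped reads were used is not given in the sources used here. Symbols came from GENCODE M21, which gave one for 53360 of 53465 identifiers; where a symbol had several, the most counted was used. Positions are whole genes on GRCm38, counted from 1.

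As in the study, low counts were removed with filterByExpr (minimum count 5, edgeR 4.0.16), and genes were tested with limma-trend (limma 3.58.1, R 4.3.3) at an adjusted p of 0.05. The study states no normalization; TMM-scaled log2 CPM with a prior count of 3 and Benjamini-Hochberg adjustment were used here. This scale understates changes of genes with few counts. Isoform ratios (0.5 added to counts), shares and step sums used counts per kilobase of exon union and exact permutation tests (scipy 1.17.1), whose 95% intervals were read from the same test. Alternatives were edgeR's quasi-likelihood test, DESeq2 1.42.0, limma-voom, other scalings, filters, prior counts and lengths, a correction of each sample for GC content and length by natural splines with 5 degrees of freedom, and leaving out samples. Fits were tested on simulated data.

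Samples with the same number were treated as pairs in the replicate block, because the study divided sorted cells between oxygen levels and the deviations of same-numbered samples correlated across genes (0.47, 0.28, 0.25 and 0.17). The study describes its RNA-seq replicates as biologically independent, but does not state that numbers 1 to 4 came from separate animals. The p-values measure the spread between these replicates, whatever their source. No 2 samples agreed within sampling noise.

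The 10 genes, the lists and the markers were chosen with earlier results of these data known. Named were the 10 genes, up to 3 higher and 3 lower genes per list by size of change, and the 5 genes most like Gpi1. Totals of 12898291 to 25132141 counts set the precision, and 3 counts, the limit for a count of 0, are 0.119 to 0.233 CPM.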

Additional observations from a re-analysis of the deposited data

Results flagged for a closer look

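The total count of hypoxia sample 1, 25132141, stood apart from the other hypoxia samples (12929564 to 13219647) by its gap to the nearest of them. In all, 42 sets of 4 values were searched in this way, and chance alone is expected to mark about 1 in 20 of them. Without that sample the 4 genes that fell were called as before. It was also the hypoxia sample with the highest CPM of Slc2a1, Hk1, Hk2, Gpi1, Pfkl, Pfkp and Pfkfb3. For Slc2a3 and Pfkm it was the hypoxia sample with the lowest CPM. The part of depth in these values was not tested.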

How the results depend on the processing

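Slc2a1, Gpi1, Pfkl and Pfkp fell under each of the 25 alternative fits, with log2 changes from -0.47 to -0.31, from -0.51 to -0.38, from -0.47 to -0.27 and from -0.44 to -0.29. Over 42 results, 40 of 929 alternative values turned direction. With the GC and length correction, chosen for ratios, shares and sums after the data were seen, these reversed: the ratios Slc2a1 to Slc2a3 (0.11), Hk1 to Hk2 (0.020) and Pfkl to Pfkp (0.15), the shares of Slc2a1 (0.17 percentage points) and Hk1 (0.29), and the hexokinase sum (0.016; 0.0087 without TMM). Leaving out samples moved the ratio Slc2a1 to Slc2a3 between -0.27 and 0.13, Pfkl to Pfkp between -0.10 and 0.031, Pfkfb3 to Pfkfb4 between -0.39 and 0.024, the PFKFB sum between -0.013 and 0.24, and the shares of Slc2a1 and Pfkfb3 between -0.33 and 0.20 and between -3.02 and 0.0017 percentage points. None of these had passed its test. Likewise Hk1 reversed to 0.022 with that correction, with or without the replicate block, and Hk2 to 0.0018 with it and to 0.066 without TMM. Leaving out samples moved Hk2 between -0.12 and 0.12 and Pfkfb3 between -0.041 and 0.23, and gave 0 to 1 genes of the 10 higher in normoxia (Pfkfb3, without both samples numbered 1). Slc2a12 did not pass under 6 alternatives. The cause was not tested.

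Counts over all genes, 2378 lower and 2592 higher, became 1379 and 1546 at a threshold of 0.01, and ranged from 1350 to 2570 and from 1467 to 2853 when samples were left out, where fewer samples entered the fit. Without TMM 1575 were lower, the share of calls that were higher was 69.6% against 52.2%, and the median of all genes moved by 0.08. The paired fit (replicate block) gave 3268 lower and 3342 higher and changed no call among the 10 genes. For ratios, shares and sums the paired sign-flip test cannot go below 0.125.

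The totals limit Slc2a3 (34 to 86 counts) and Pfkfb4 (50 to 114). Without the GC and length correction their limma-trend intervals over all samples include falls and rises, with or without the block. With the correction and the block the intervals were -0.77 to -0.08 for Slc2a3 (adjusted p = 0.042) and 0.05 to 0.64 for Pfkfb4 (adjusted p = 0.056). Whether reads of Pfkp and of Pfkm (18 exon bases shared with Senp1) were kept apart from those of opposite-strand neighbours is not stated. With 1 RNA measurement per gene, splice forms of these genes were not separated.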
